A study of Mus musculus with 16 samples.

Results

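Liver from wild-type (WT) mice given CDDO-Me was compared with liver from Nrf2-/- (KO) mice left untreated, the pair of groups that by design spans NRF2 activity most widely. The comparison takes 8 of the 16 RNA-seq libraries, 4 from each group, chosen by genotype and treatment and not by any measured value. All mice were C57BL/6. The WT CDDO-Me mice received 3 mg/kg of CDDO-Me in DMSO by intraperitoneal injection 24 h and again 1 h ahead of partial hepatectomy, and the liver analysed is that of day 0. The KO untreated mice carried the Nrf2 deletion and received no injection according to their label. Genotype, drug, vehicle and the injections therefore all differ between the groups and cannot be told apart within this comparison. The other groups, WT mice given DMSO at 1 µL/g (WT DMSO) and KO mice given the same CDDO-Me doses (KO CDDO-Me), also with 4 libraries each, are used to place each gene. The series text gives 4 animals per group. The age and sex of the mice and the deleted part of the gene are not in the sources used here.

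The transcription factor NRF2, encoded by Nfe2l2, is held in the cytoplasm by KEAP1, which hands it to the proteasome. Electrophiles modify cysteines of KEAP1, NRF2 then accumulates in the nucleus, pairs with a small MAF protein and binds antioxidant response elements near genes for quinone reduction, glutathione synthesis, conjugation, NADPH supply and efflux. The triterpenoid CDDO-Me, also called bardoxolone methyl, reacts with KEAP1. In liver, NRF2 is known for control of detoxification enzymes and for a restraining influence on fat synthesis.

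The core of the antioxidant response element, TGACNNNGC, was searched on both strands of the 300-base windows that RefSeq gives around gene starts (250 bases before to 50 after). It was in 12.4% of 32851 windows, in 14.8% of the 10605 windows of genes tested, in 18.5% of the 341 windows of genes that were higher in WT CDDO-Me, in 9.7% of the 206 windows of genes that were lower, and in 29.6% of the 27 windows found for a list of 32 NRF2 target genes. Among the NRF2 panel and the largest rises it was in 3 of 16 windows (18.8%), and among the largest falls in 0 of 8. Stretches of 4 target genes described below whose window holds the core are shown, from 150 bases before to 20 after the start, with the matched letters in capitals.
Me1 (GRCm38.p6, chr9:86695895-86696064, strand −): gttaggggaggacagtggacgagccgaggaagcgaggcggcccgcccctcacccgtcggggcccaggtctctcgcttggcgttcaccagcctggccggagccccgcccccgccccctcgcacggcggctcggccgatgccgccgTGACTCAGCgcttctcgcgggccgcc
Prdx1 (GRCm38.p6, chr4:116685449-116685618, strand +): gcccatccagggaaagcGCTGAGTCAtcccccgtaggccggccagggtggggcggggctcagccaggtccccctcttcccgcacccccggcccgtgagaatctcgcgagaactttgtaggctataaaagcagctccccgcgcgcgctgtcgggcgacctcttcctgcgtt
Ugdh (GRCm38.p6, chr5:65435823-65435992, strand −): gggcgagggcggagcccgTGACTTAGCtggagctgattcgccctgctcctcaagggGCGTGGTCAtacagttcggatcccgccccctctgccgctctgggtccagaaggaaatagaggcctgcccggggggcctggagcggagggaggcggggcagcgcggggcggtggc
G6pdx (GRCm38.p6, chrX:74428861-74429030, strand −): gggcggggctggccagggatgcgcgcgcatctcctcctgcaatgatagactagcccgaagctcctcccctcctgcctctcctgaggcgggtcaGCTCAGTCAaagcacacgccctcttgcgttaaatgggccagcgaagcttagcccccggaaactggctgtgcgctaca
The match in Me1, an enzyme that makes NADPH from malate, begins 6 bases before the start. The pair of matches in Ugdh, which makes UDP-glucuronic acid, begin 132 and 94 bases before it, and those in Prdx1 and G6pdx 133 and 57 bases before it. A match describes these letters only, and no binding was measured.

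Counts per library totalled 99284626 in WT CDDO-Me 1, 13809649 to 14907764 in WT CDDO-Me 2 to 4, and 14019793 to 24194378 in KO untreated. Levels are CPM (counts scaled to library size, with TMM factors), and a fold change is WT CDDO-Me over KO untreated. Reads on sense-intronic and unsettled (TEC) genes took 0.967% and 0.673% of counts in KO untreated 1 and 2 and 0.201% to 0.407% in the other 6 libraries. Genes annotated as nuclear ribosomal RNA took 0.0105% of counts in WT CDDO-Me 1, 0.194% to 0.51% in the other 3 libraries of that group and 0.0038% to 0.0368% in KO untreated, so that this technical split runs almost along the groups. For many of the lists, counts without the libraries concerned stand beside the totals. Genes were named by a rule set out with the processing, and further list members, such as Cbr1, Asns, Cyp3a11, Cyp7a1 and Scd1, were picked after their values were seen.

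Nfe2l2 (ENSMUSG00000015839, chromosome 2, 75675513 to 75704641, GRCm38, as for all positions given) read 39.5, 36.6, 45.5 and 38 CPM in WT CDDO-Me 1 to 4 and 51.6, 35.5, 19.9 and 21.3 CPM in KO untreated 1 to 4. The groups overlapped, because KO untreated 1 lay above all WT CDDO-Me libraries (log2 0.31 ± 0.25 SE, quasi-likelihood adjusted p = 0.494). Reads outside the deleted part would not check the label, and which part was deleted is not stated. Nqo1, the usual readout of NRF2, stood at 0.434 to 1.19 CPM in KO untreated, below the 3.21 to 4.21 CPM of WT DMSO. Of 15 genes for NRF2 and its regulators, 1 rose and 1 fell. Sqstm1, the autophagy adaptor that binds KEAP1, rose, with 150.4 to 386 CPM in the untreated KO livers against 505 to 665 CPM in the WT CDDO-Me livers (log2 1.04 ± 0.28 SE, quasi-likelihood adjusted p = 0.0448). Its groups did not overlap, but the call was lost when any of WT CDDO-Me 1 to 4 or KO untreated 1 or 2 was left out. Btrc, an adaptor of another ubiquitin ligase that removes NRF2, fell by 0.53 ± 0.15 (log2, SE; quasi-likelihood adjusted p = 0.0463). The call of Btrc was lost on leaving out any 1 library other than KO untreated 3. Keap1 itself had a log2 fold change of 0.5 (adjusted p in edgeR = 0.129). The small MAF partners Maff, Mafg and Mafk had values of 1.69, 0.31 and 1.13, with Mafg at −0.0021 on log2(FPKM + 1), and the repressor Bach1 had 1.33 (adjusted p in edgeR = 0.0937, 0.327, 0.0994 and 0.0852).

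In the comparison as a whole 783 of 16206 genes tested passed a Benjamini-Hochberg adjusted p of 0.05 in edgeR's quasi-likelihood test (4.83%), the rule behind every call here. WT CDDO-Me was higher for 476 of them (2.94% of genes tested) and lower for 307 (1.89%), and 319 and 212 of these differed at least 2-fold. At an unadjusted p under 0.05 there were 3407 of the 16206 genes, both directions together. Shares per direction, or for comparisons of the other groups, were not taken at this cut. Counts of list members at this cut therefore describe those members only. The median log2 fold change over all genes tested was −0.04, and 46.2% had positive values. For 454 of the risen and 284 of the fallen genes the 4 libraries of each group did not overlap. Over all genes tested, called or not, 7.57% had all WT CDDO-Me libraries above all KO untreated libraries and 6.66% had them below. On the authors' FPKM scale (limma on log2(FPKM + 1)) the median was −0.20 and the split turned, with 288 genes up and 835 down (25.6% up against 60.8%). Leaving out KO untreated 1 and 2 left 164 up and 99 down, and setting WT CDDO-Me 1 alone against KO untreated gave 88 up and 2 down. In that last fit the lone library is assumed to vary like the other groups, which supply the spread, and with 1 library fewer genes can pass, so its counts also reflect lower power. Without WT CDDO-Me 3 or 4 or KO untreated 1 or 2, each in turn, there were 253 to 314 rises, and without WT CDDO-Me 1, 2, 3 or 4 or KO untreated 1 or 2 there were 132 to 201 falls. Leaving out WT DMSO 4 gave 748 and 606, with 16292 genes tested. That library is in neither group compared, but enters the filter, the scaling and the shared estimate of the spread.

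**Figure D1:**
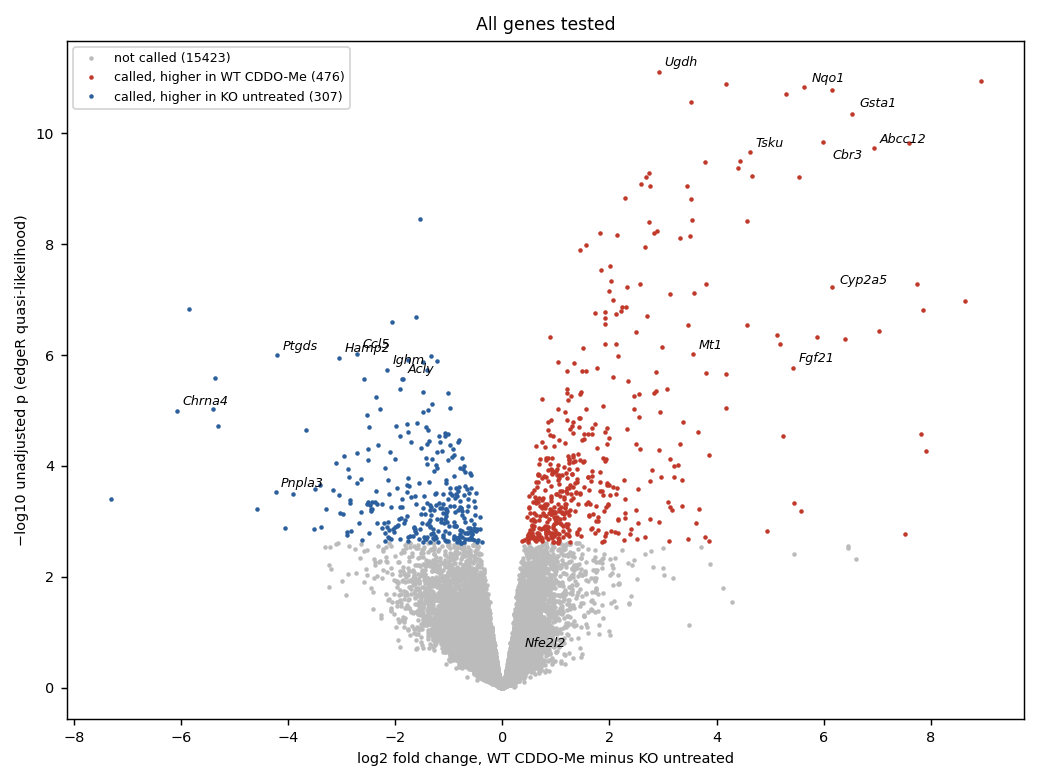
Each of the 16206 points is a gene, placed by its log2 fold change (WT CDDO-Me minus KO untreated, horizontal) and the −log10 of its unadjusted edgeR p (vertical), with the 476 genes called higher in red and the 307 called lower in blue. The smallest p-values lie on the right, at genes such as Ugdh and Nqo1, while Nfe2l2 lies near the bottom.

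Of all lists, the known NRF2 targets had the highest median. Of 32 genes, 31 rose and 0 fell (31 and 0 also at an unadjusted p under 0.05, 30 and 0 in DESeq2), all 31 with groups that did not overlap, and the median log2 fold change was 2.78. Only Taldo1, of the pentose phosphate pathway, was not called (log2 0.39 ± 0.25 SE, quasi-likelihood adjusted p = 0.387). The list was chosen with earlier results of these data known, so its count describes these livers and is no separate evidence. It was 20 of 32 without KO untreated 1 and 2, and 17 with WT CDDO-Me 1 as the only library of its group.

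Among enzymes that reduce quinones and carbonyls, Cbr3 and Nqo1 moved most on the log2 scale. Nqo1 (chromosome 8, 107388225 to 107403206) read 45.9, 40.2, 36.4 and 30.8 CPM in WT CDDO-Me 1 to 4 and 0.508, 0.434, 0.897 and 1.19 CPM in KO untreated 1 to 4. Even the lowest WT CDDO-Me library lay far above the highest KO untreated library, and the log2 difference of this quinone reductase was 5.64 ± 0.34 (SE, quasi-likelihood adjusted p = 5.18e-08). Cbr3 read 28.3, 33.9, 20.8 and 15.5 CPM in WT CDDO-Me 1 to 4 and 0.0508, 0.29, 0.519 and 0.639 CPM in KO untreated 1 to 4. Cbr3, a carbonyl reductase, was thus under 1 CPM in every KO untreated library (log2 5.99 ± 0.42 SE, quasi-likelihood adjusted p = 2.42e-07). The related Cbr1 had 22.4 to 52.8 CPM in the untreated KO livers against 219.5 to 301 CPM in the WT CDDO-Me livers (log2 2.88 ± 0.26 SE, quasi-likelihood adjusted p = 3.28e-06). Ephx1 read 1117, 921, 1208 and 1038 CPM in WT CDDO-Me 1 to 4 and 56.7, 71.4, 116 and 124 CPM in KO untreated 1 to 4. Ephx1, which opens epoxides, and Aox1, an aldehyde oxidase (28.1 to 65.9 against 436 to 555 CPM), had log2 fold changes of 3.54 and 3.52 (adjusted p in edgeR = 2.28e-06 and 1.03e-06). Of 30 enzymes of quinone, carbonyl and aldehyde metabolism, 12 rose and 0 fell, with a median of 0.71 (7 rose without KO untreated 1 and 2, and 6 with only WT CDDO-Me 1). The other 7 were the aldo-keto reductases Akr1b8, Akr1c19, Akr1c14, Akr1c13 and Akr1a1 (log2 fold changes 2.04, 1.77, 1.18, 1.03 and 1.21) and the aldehyde dehydrogenases Aldh1a1 and Aldh2 (1.88 and 1.01).

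**Figure D2:**
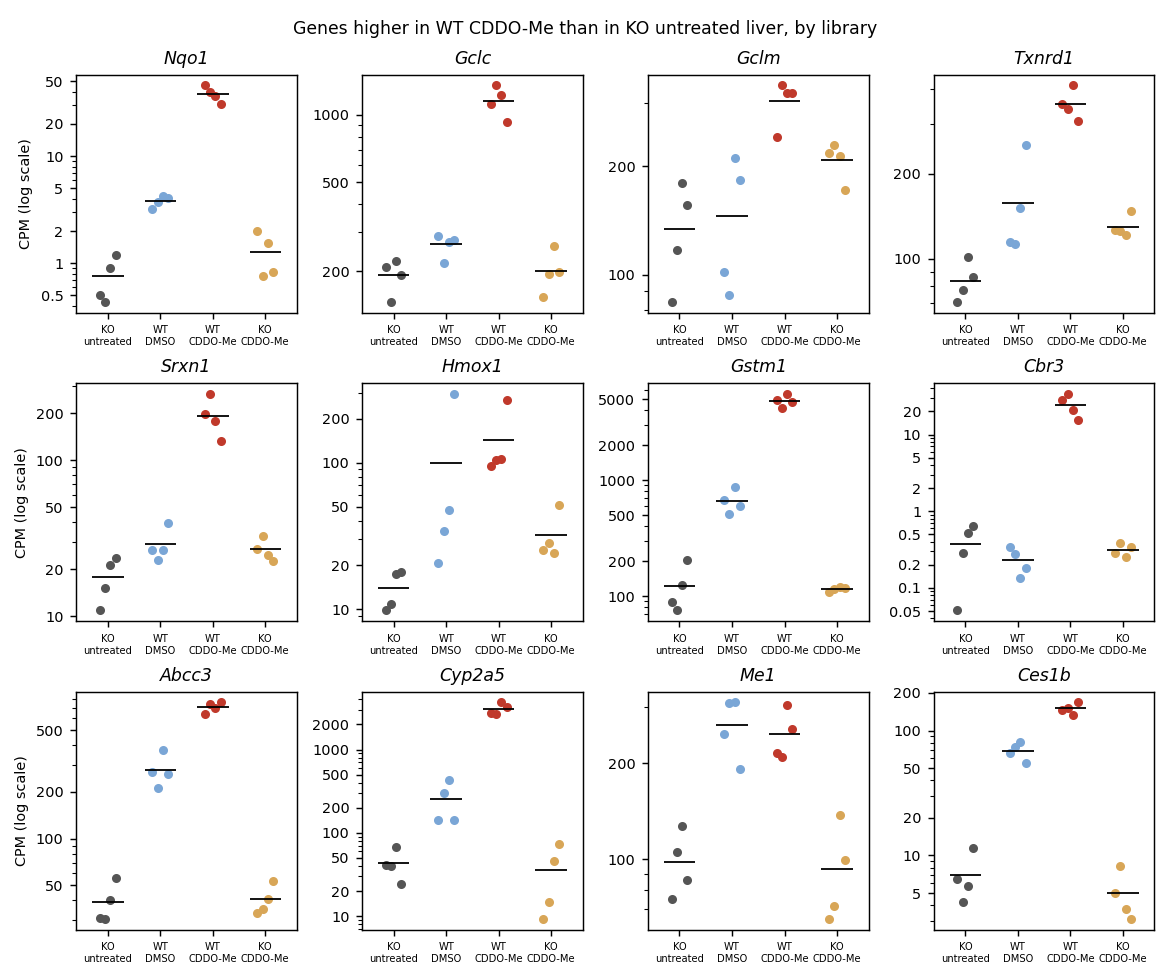
CPM on a log scale for 12 genes that were higher in WT CDDO-Me than in KO untreated liver, with a point for each library and a line at the group mean (n = 4), in KO untreated, WT DMSO, WT CDDO-Me and KO CDDO-Me. Nqo1, Gstm1, Cyp2a5 and Abcc3 step up from KO untreated to WT DMSO and again to WT CDDO-Me, Gclc and Cbr3 stand out in WT CDDO-Me, and the Me1 means of the WT groups lie close together.

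Both subunits of the rate-limiting enzyme of glutathione synthesis rose. Gclc (chromosome 9, 77754535 to 77794485) read 1118, 1355, 1230 and 925 CPM in WT CDDO-Me 1 to 4 and 209.7, 146, 222 and 192 CPM in KO untreated 1 to 4. Gclc, the catalytic subunit of glutamate-cysteine ligase, was at 925 CPM or more in every WT CDDO-Me library (log2 2.59 ± 0.20 SE, quasi-likelihood adjusted p = 6.6e-07). Gclm read 240.4, 335, 319.5 and 318 CPM in WT CDDO-Me 1 to 4 and 84.1, 117, 179.8 and 156 CPM in KO untreated 1 to 4. The modifier subunit Gclm rose less, and WT CDDO-Me 1 was the lowest of its group (log2 1.17 ± 0.27 SE, quasi-likelihood adjusted p = 0.0203). It lost its call without WT CDDO-Me 2, 3 or 4 or KO untreated 1 or 2 (adjusted p in edgeR at most 0.0719). Glutathione synthetase Gss and glutathione reductase Gsr had log2 fold changes of 1.57 and 1.53 (adjusted p in edgeR = 0.000335 and 0.00259). The cystine carrier Slc7a11 read 4.88, 19.1, 0.553 and 3.3 CPM in WT CDDO-Me 1 to 4 and 0.0852 to 0.203 CPM in KO untreated. Its value in WT CDDO-Me 2 was the highest by far and that in WT CDDO-Me 3 close to the KO range (log2 5.45 ± 1.25 SE, quasi-likelihood adjusted p = 0.0184, and at most 0.0663 without WT CDDO-Me 2 or KO untreated 1 or 2). Of 18 genes of glutathione synthesis and recycling, 9 rose and 0 fell, with a median of 0.91 (3 rose without KO untreated 1 and 2, and 3 with only WT CDDO-Me 1). The remaining 4 were the carrier subunit Slc3a2, the 5-oxoprolinase Oplah, the glutathione-degrading enzyme Chac1 and the lipid peroxidase Gpx4. Gpx1, the abundant glutathione peroxidase, had 0.02 ± 0.31 (SE, quasi-likelihood adjusted p = 0.978).

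Of 21 transferases that attach glutathione to electrophiles, 12 rose and 0 fell, with a median of 1.25. Without KO untreated 1 and 2, 9 rose and the median was 0.95. Gstm1 (chromosome 3, 108012255 to 108017973) read 4879, 4194, 5539 and 4757 CPM in WT CDDO-Me 1 to 4 and 88.4, 75.1, 125 and 204 CPM in KO untreated 1 to 4. Gstm1 thus lay far apart in the groups (log2 5.3 ± 0.33 SE, quasi-likelihood adjusted p = 5.18e-08). Gstm3 read 468, 371, 459.9 and 324 CPM in WT CDDO-Me 1 to 4 and 5.99, 4.68, 5.57 and 18.5 CPM in KO untreated 1 to 4. Gstm3 was highest of its group in KO untreated 4, still far below the lowest WT CDDO-Me library (log2 5.54 ± 0.43 SE, quasi-likelihood adjusted p = 5.23e-07). Gsta1 read 75.1, 49.3, 96.8 and 44.7 CPM in WT CDDO-Me 1 to 4 and 0.203, 0.386, 0.802 and 1.41 CPM in KO untreated 1 to 4. The log2 fold change of Gsta1 was 6.53 ± 0.43 (SE, quasi-likelihood adjusted p = 9.01e-08), but 75.7% of its 50-base stretches also occur in Gm3776 and 46.6% in Gsta2, so reads may be split among them. Gsta2 and Gm3776 read 36.8 to 78.2 and 28.8 to 66.8 CPM in WT CDDO-Me against 1.7 to 3.67 and 0 to 0.597 CPM in KO untreated. Gstp1 had 424 to 676 CPM in the untreated KO livers against 2129 to 3277 CPM in the WT CDDO-Me livers (log2 2.12 ± 0.27 SE, quasi-likelihood adjusted p = 0.00014), with 33.7% of its stretches shared with Gstp2. Gsta4, which clears hydroxynonenal, had 2.83, Gstm4 3.32, Gstm2 2 and Gsta3 1.25, and the microsomal Mgst1 and Mgst3 had 1.07 and 1.36.

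Among thioredoxin, peroxiredoxin and superoxide enzymes, 6 of 22 rose and 0 fell, with a median of 0.35 (2 or 3 rose without WT CDDO-Me 2, 3 or 4 or KO untreated 1 or 2). Srxn1 (chromosome 2, 152105516 to 152111376) read 197, 266, 177 and 133 CPM in WT CDDO-Me 1 to 4 and 10.9, 15.1, 21.3 and 23.6 CPM in KO untreated 1 to 4. Srxn1, sulfiredoxin, which restores overoxidised peroxiredoxins, was well apart in the groups (log2 3.45 ± 0.27 SE, quasi-likelihood adjusted p = 6.6e-07). Txnrd1 read 355, 339, 411 and 307 CPM in WT CDDO-Me 1 to 4 and 70.4, 77.3, 101 and 86.2 CPM in KO untreated 1 to 4. Txnrd1, thioredoxin reductase, had no overlap either (log2 2.07 ± 0.23 SE, quasi-likelihood adjusted p = 3.31e-05). Its substrate thioredoxin, Txn1, rose by 1.13, the methionine sulfoxide reductase Msra by 0.91, the stress-responsive Sesn2 by 1.25 and the peroxiredoxin Prdx1 by 1.05 on the log2 scale. Txn1 was not called without WT CDDO-Me 2, 3 or 4 or KO untreated 1 or 2, and Msra not without WT CDDO-Me 3 or 4 or KO untreated 2. Of 13 genes that supply NADPH, which these reductases consume, 5 rose and 0 fell (median 0.5), with 2 rises without KO untreated 1 and 2 and 0 with WT CDDO-Me 1 as the only library of its group. Tkt and Pgd, of the pentose phosphate pathway, had log2 fold changes of 1.51 and 1.23 (adjusted p in edgeR = 0.000156 and 0.00088), G6pdx, its first enzyme, 0.97, and H6pd, its counterpart in the endoplasmic reticulum, 1.25. Me1 read 216, 209, 306 and 257 CPM in WT CDDO-Me 1 to 4 and 75.2, 105, 127 and 85.7 CPM in KO untreated 1 to 4. Malic enzyme was higher in each WT CDDO-Me library (log2 1.33 ± 0.25 SE, quasi-likelihood adjusted p = 0.00491).

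Genes of heme breakdown and iron storage were among those that rose. Hmox1 (chromosome 8, 75093621 to 75100589) read 95, 104, 105 and 266 CPM in WT CDDO-Me 1 to 4 and 9.8, 10.9, 17.4 and 17.9 CPM in KO untreated 1 to 4. Hmox1, heme oxygenase 1, was similar in 3 WT CDDO-Me libraries and highest in WT CDDO-Me 4, all above the KO range (log2 3.35 ± 0.69 SE, quasi-likelihood adjusted p = 0.00972). WT DMSO spanned 20.5 to 294 CPM. Blvrb, biliverdin reductase B, had 22.9 to 35 CPM in the untreated KO livers against 165 to 208 CPM in the WT CDDO-Me livers and the heme carrier Slc48a1 12.8 to 21.1 CPM in the untreated KO livers against 73.2 to 90.2 CPM in the WT CDDO-Me livers (log2 fold changes 2.73 and 2.29, adjusted p in edgeR = 5.23e-07 and 1.03e-06). The ferritin chains Ftl1 and Fth1 had 1.93 and 1.36 (adjusted p in edgeR = 4.81e-05 and 0.00574). The iron hormone genes went apart. Hamp, hepcidin, rose, with 35.1 to 149.8 CPM in the untreated KO livers against 367 to 989 CPM in the WT CDDO-Me livers (log2 2.57 ± 0.47 SE, quasi-likelihood adjusted p = 0.00403), whereas its copy Hamp2 fell by 3.04 ± 0.40 (log2, SE; quasi-likelihood adjusted p = 0.000221), with 11.8 to 22.5 CPM in the untreated KO livers against 1.5 to 3.85 CPM in the WT CDDO-Me livers. KO CDDO-Me liver read 269 to 703 CPM for Hamp and 3.35 to 7.63 CPM for Hamp2. Hamp shares 16.6% of its 50-base stretches with Hamp2. Of 27 heme and iron genes, 6 rose and 1 fell (median 0.24, with 4 rises without KO untreated 1 and 2 and 2 with only WT CDDO-Me 1).

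Genes of conjugation and export also rose. Ugdh (chromosome 5, 65413221 to 65435949) read 482, 552, 578 and 453 CPM in WT CDDO-Me 1 to 4 and 48.9, 71.9, 76.6 and 75.9 CPM in KO untreated 1 to 4. KO untreated 1 was the lowest of its group, and the spread within each group was small beside the gap (log2 2.92 ± 0.17 SE, quasi-likelihood adjusted p = 5.18e-08). Of 26 genes for glucuronidation and sulfation, 8 rose and 2 fell (median 0.52), with 6 rises without KO untreated 1 and 2 and 5 with only WT CDDO-Me 1. The glucuronosyltransferase Ugt2b35 had 42.6 to 73.7 CPM in the untreated KO livers against 623 to 969.8 CPM in the WT CDDO-Me livers and Ugt2b5 140.4 to 251 CPM in the untreated KO livers against 1378 to 2111 CPM in the WT CDDO-Me livers (log2 fold changes 3.78 and 3.13, adjusted p in edgeR = 3.77e-07 and 2.71e-05). Slc35d1, which carries UDP-glucuronic acid into the endoplasmic reticulum, had 1.84, and the sulfotransferases Sult1c2 and Sult1d1 fell by 1.28 and 0.99 on the log2 scale. Neither was called without WT CDDO-Me 2, 3 or 4 or KO untreated 4, and Sult1d1 also not without WT CDDO-Me 1 or KO untreated 2 or 3. Ugt1a6b rose by 1.56 and shares 79.6% of its stretches with Ugt1a6a. Abcc3 (chromosome 11, 94343295 to 94392997) read 636, 739, 701 and 757 CPM in WT CDDO-Me 1 to 4 and 30.6, 30.2, 39.8 and 55.9 CPM in KO untreated 1 to 4. Abcc3, which pumps glucuronides and bile salts into blood, was over 10 times as high in each WT CDDO-Me library as in any KO untreated library (log2 4.18 ± 0.25 SE, quasi-likelihood adjusted p = 5.18e-08). Abcc4 read 50.9, 21.1, 26.8 and 23.3 CPM in WT CDDO-Me 1 to 4 and 4.11, 4.54, 3.35 and 5.11 CPM in KO untreated 1 to 4. WT CDDO-Me 1 was the highest for this basolateral pump (log2 2.84 ± 0.26 SE, quasi-likelihood adjusted p = 3.28e-06). Abcc12 read 8.73, 6.1, 4.43 and 6.24 CPM in WT CDDO-Me 1 to 4 and 0.0508, 0, 0.0944 and 0.0426 CPM in KO untreated 1 to 4. Abcc12 was close to absent in KO untreated, with 0 reads in KO untreated 2, so the size of its difference is uncertain (log2 6.95 ± 0.50 SE, quasi-likelihood adjusted p = 2.77e-07). Of 16 listed efflux pumps, 5 rose and 0 fell (median 0.49), the others being Abcc1, Abcc2 and Abcg2 with 1.26, 0.94 and 0.97. The count was 2 or 3 without any of WT CDDO-Me 1 to 4 or KO untreated 1 or 2.

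Cytochrome P450 genes of families 1 to 3 had 4 of 40 higher and 4 lower, with a median of 0.19 (−0.1 on the FPKM scale). There were 2 rises without WT CDDO-Me 4 or KO untreated 1 or 2, and at most 1 fall without WT CDDO-Me 1, 2 or 4 or KO untreated 4. Cyp2a5 (chromosome 7, 26835305 to 26843548) read 2785, 2652, 3680 and 3218 CPM in WT CDDO-Me 1 to 4 and 41.1, 40.2, 67.2 and 24.4 CPM in KO untreated 1 to 4. Cyp2a5, a coumarin hydroxylase, was at 2652 CPM or more in every WT CDDO-Me library (log2 6.16 ± 0.66 SE, quasi-likelihood adjusted p = 2.17e-05). Its near copy Cyp2a4 had 0.152 to 2.81 CPM in the untreated KO livers against 26.9 to 50.2 CPM in the WT CDDO-Me livers (log2 5.18 ± 0.66 SE, quasi-likelihood adjusted p = 0.000141), and 36.1% of the 50-base stretches of Cyp2a4 occur in Cyp2a5. Cyp2c40 and Cyp2c69 were lower in WT CDDO-Me by 2.11 and 2.68 on the log2 scale (adjusted p in edgeR = 0.0366 and 0.0309), but KO untreated 4 alone read 314 and 131 CPM, the groups overlapped, and the call of each was lost without KO untreated 4. Of the 50-base stretches of Cyp2c69, 46.5% occur in Cyp2c40. Cyp3a11, the main drug-oxidising P450 of mouse liver, had −0.85 ± 0.45 (SE, quasi-likelihood adjusted p = 0.291). Of 13 carboxylesterases, which split esters and amides, 5 rose and 0 fell (median 0.88), and 3 rose without KO untreated 1 and 2 or with only WT CDDO-Me 1. Ces1g read 464, 522, 476 and 403 CPM in WT CDDO-Me 1 to 4 and 16.7, 16.5, 31.5 and 14.2 CPM in KO untreated 1 to 4. Ces1b and Ces1f spanned 4.2 to 11.4 and 27.8 to 46.6 CPM in KO untreated against 134 to 168 and 366 to 492 CPM, and the log2 differences of Ces1g, Ces1b and Ces1f were 4.56, 4.43 and 3.47 (adjusted p in edgeR = 7.17e-05, 3.77e-07 and 7.17e-05). Tsku (chromosome 7, 98350668 to 98361328) read 218, 322, 346 and 277 CPM in WT CDDO-Me 1 to 4 and 6.86, 19.7, 13.3 and 6.95 CPM in KO untreated 1 to 4. Tsku, tsukushi, a protein secreted by liver, was more than 10-fold higher in each WT CDDO-Me library than in any KO untreated library (log2 4.63 ± 0.34 SE, quasi-likelihood adjusted p = 2.96e-07).

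The amino acid stress programme of ATF4 had 13 of 22 genes higher and 0 lower, with a median of 1.55 (0.68 on the FPKM scale and 1.19 without KO untreated 1 and 2). Fgf21 (chromosome 7, 45613886 to 45615490) read 90.2, 7.89, 15.1 and 21.9 CPM in WT CDDO-Me 1 to 4 and 1.07, 0.29, 1.04 and 0.767 CPM in KO untreated 1 to 4. Fgf21, a fasting and stress hormone made by liver, was far above KO in all 4 libraries, though WT CDDO-Me 1 was far above the other 3 (log2 5.43 ± 0.75 SE, quasi-likelihood adjusted p = 0.000313). Psat1 read 19.6, 11.6, 5.06 and 6.79 CPM in WT CDDO-Me 1 to 4 and 0.355, 0.145, 0.661 and 1.19 CPM in KO untreated 1 to 4. Psat1, of serine synthesis, was again highest in WT CDDO-Me 1 (log2 4.18 ± 0.59 SE, quasi-likelihood adjusted p = 0.000368). Aldh1l2, of mitochondrial folate metabolism, rose by 2.92, Atf3 by 2.75, Nupr1 by 2.03, Chac1 by 1.95 and Atf4 itself by 0.71 on the log2 scale (adjusted p in edgeR = 0.00413, 0.01, 0.0376, 0.0116 and 0.00545). Asns, asparagine synthetase, read 45, 14.4, 17.6 and 14 CPM in WT CDDO-Me and 0.508, 0.193, 0.802 and 9.59 CPM in KO untreated and missed the threshold (log2 3.03 ± 1.03 SE, quasi-likelihood adjusted p = 0.104), and Ddit3 (CHOP) had −0.07. On the FPKM scale 7 genes of this list rose, 8 rose without KO untreated 2 and 4 without both KO untreated 1 and 2. Few genes of the chaperone lists were called. Of 18 endoplasmic reticulum chaperones Derl3 alone was called (log2 3.66 ± 0.63 SE, quasi-likelihood adjusted p = 0.00249), of 15 heat shock genes Hspb1 and Hspb8 (1.68 and 1.19), and of 32 proteasome subunits Psmb5 (1.18). Hspb8 and Psmb5 were not called without KO untreated 2, nor Psmb5 without WT CDDO-Me 3 or 4. All 32 proteasome genes had positive values, with a median of 0.27, but on the FPKM scale 10 had and the median was −0.04, the same median as without KO untreated 1 and 2.

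The change from KO untreated to WT CDDO-Me is the sum of a genotype step (WT DMSO minus KO untreated, in which vehicle also differs) and a drug step (WT CDDO-Me minus WT DMSO). Called genes up and down numbered 157 and 66 for the genotype step (0.969% and 0.407% of genes tested), and 90 and 28 for the drug step (0.555% and 0.173%). KO CDDO-Me minus KO untreated gave 17 and 4 (0.105% and 0.0247%). These comparisons share libraries with the main comparison, so their values are set side by side only. Nuclear ribosomal RNA genes took 0.634%, 0.173%, 0.56% and 0.00595% of counts in WT DMSO 1 to 4, against 0.0038% to 0.0368% in KO untreated. The technical split therefore also runs almost along the genotype step, and its part there was not tested. Of the 32 NRF2 targets, 12 rose in the genotype step, 20 in the drug step and 0 in KO liver given the drug, with medians of 0.82, 1.29 and 0.08. In KO liver given the drug, 5 of these targets were up and 2 down at an unadjusted p under 0.05 in edgeR. No share over all genes was taken at this cut. Cbr3 had its difference in the drug step, with log2 values of −0.72 for genotype and 6.72 for drug, as did Fgf21 (−0.03 and 5.46). Gclc had 0.45 and 2.13, Srxn1 0.71 and 2.74, and Psat1 0.15 and 4.03. The ATF4 list had medians of 0.17 for genotype, 1.03 for drug and 0.4 in KO liver given the drug. Its members were not alike. Atf3 had 2.55 for genotype, 0.2 for drug and 3.27 in KO liver given the drug (adjusted p in edgeR = 0.0372, 0.86 and 0.03). Aldh1l2 had 1.37, 1.55 and 1.84, and Atf4 0.39, 0.32 and 0.62, with no step called. Nqo1 took both steps, 2.31 and 3.33 (adjusted p in edgeR = 0.00206 and 2.6e-05). The same held for Gstm1 (2.43 and 2.86), Gsta1 (2.35 and 4.18), Cyp2a5 (2.55 and 3.6) and Ugdh (1.3 and 1.62), each step called. For Abcc3 the genotype step was 2.83 and the drug step 1.35, for Tsku 3.07 and 1.56, and for Ces1b 3.31 and 1.13, the last not called (adjusted p in edgeR = 0.0894). Me1 had 1.43 for genotype (adjusted p in edgeR = 0.00903) and −0.1 for drug.

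**Figure D3:**
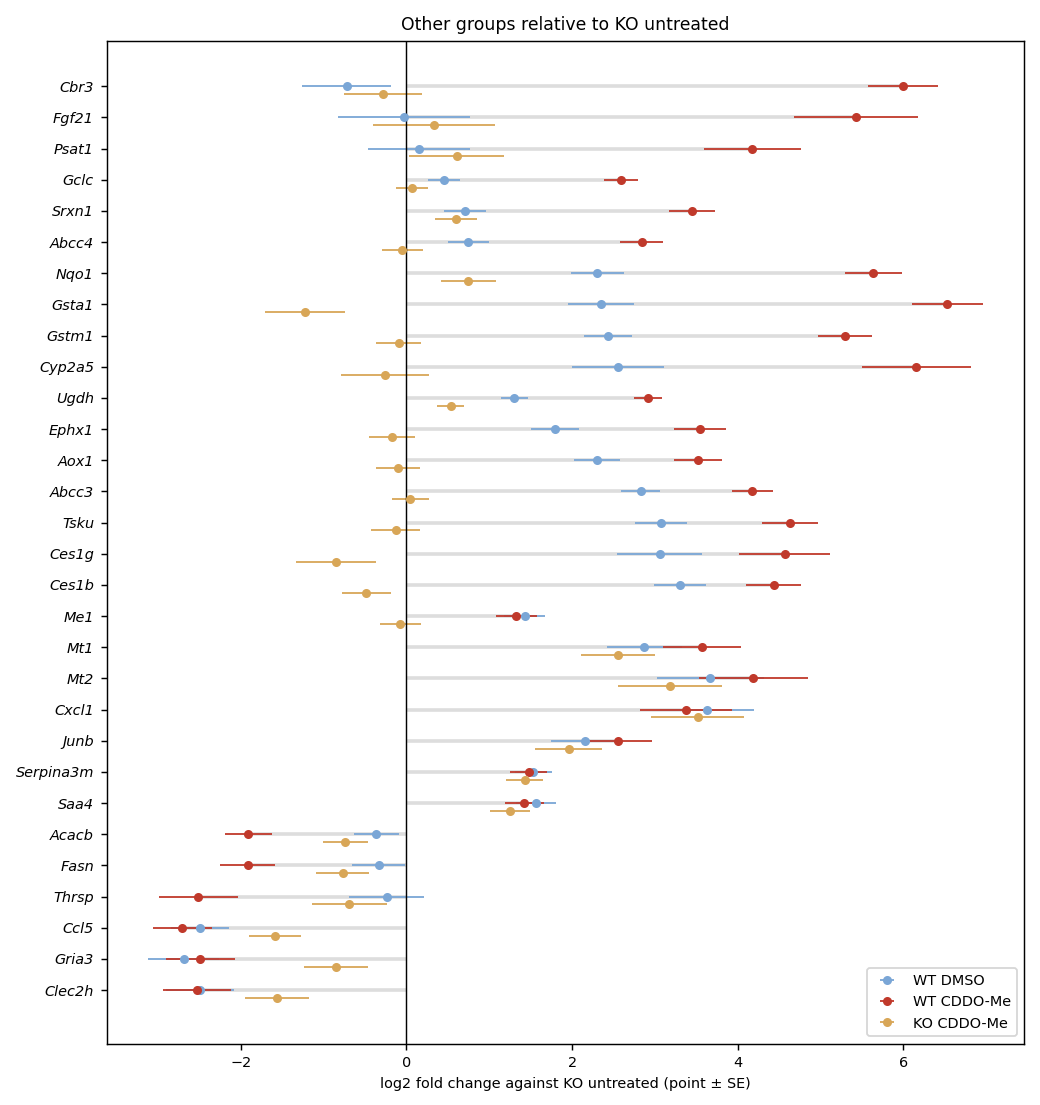
Log2 fold change against KO untreated (horizontal, point ± SE) for WT DMSO, WT CDDO-Me and KO CDDO-Me at 30 genes, from a fit to all 16 libraries. From the top, genes in which WT CDDO-Me stands alone give way to genes raised in both WT groups, then to genes such as Mt1 and Cxcl1 for which all other groups lie above KO untreated, and last to genes that were lower.

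Acute phase and immediate early genes rose as well. KO untreated is the only group without an injection, so that in the main comparison injection, drug and genotype cannot be told apart for these genes. In the drug step, where both groups were WT and injected, the acute phase and immediate early medians were 0.25 and 0.01, with 0 genes called. The genotype step had medians of 0.85 and 1.24, with 6 and 5 genes called up. For immediate early genes the median of KO CDDO-Me minus KO untreated was 0.92, with 1 called. The cause was not tested. Of 27 acute phase plasma protein and metallothionein genes, 9 rose, 0 fell and all 27 had positive values (median 1.39; 24 positive and median 1.06 on the FPKM scale). The median for KO CDDO-Me minus KO untreated was 1.52, with 3 genes called. Mt1 read 829, 797, 714 and 1511 CPM in WT CDDO-Me 1 to 4 and 25, 58, 116 and 125 CPM in KO untreated 1 to 4. The metallothionein Mt1 stood at 414 to 914 CPM in WT DMSO, with 273 to 607 CPM for KO CDDO-Me, so that KO untreated was the low group (main comparison log2 3.57 ± 0.47 SE, quasi-likelihood adjusted p = 0.000199). Mt2 had 5.54 to 80.6 CPM in the untreated KO livers against 647 to 1194 CPM in the WT CDDO-Me livers (log2 4.19 ± 0.66 SE, quasi-likelihood adjusted p = 0.0012). The plasma protein genes Serpina3m and Saa4 had log2 fold changes of 1.47 and 1.42 in the main comparison and 1.43 and 1.25 in KO liver given the drug. Itih4 had 1.39 and 1.97, and was not called in the main comparison without any 1 of WT CDDO-Me 1 to 4 or KO untreated 1 or 2. Of 24 immediate early genes, 6 rose and 0 fell (median 0.98), among them Junb (log2 2.55 ± 0.41 SE, quasi-likelihood adjusted p = 0.00158), Gadd45a (3.31) and Jun (1.28, not called without WT CDDO-Me 1 or KO untreated 2 or on the FPKM scale). The suppressor of cytokine signalling Socs3 had 4.47 to 31.6 CPM in the untreated KO livers against 105 to 140.1 CPM in the WT CDDO-Me livers. Without KO untreated 1 and 2, 1 immediate early and 5 acute phase genes were called, with 3 immediate early genes without KO untreated 2 alone and 5 acute phase genes without WT CDDO-Me 2, WT CDDO-Me 4 or KO untreated 1. Cxcl1 (chromosome 5, 90891241 to 90893115) read 154, 141, 89.1 and 119.5 CPM in WT CDDO-Me 1 to 4 and 12.3, 16.8, 7.6 and 11.8 CPM in KO untreated 1 to 4. This neutrophil chemokine did not overlap between the groups (log2 3.38 ± 0.56 SE, quasi-likelihood adjusted p = 0.00184), and KO CDDO-Me had 44, 84.3, 146 and 279.5 CPM. Summed neutrophil and monocyte markers were 114 to 1130 CPM in WT CDDO-Me and 57.9 to 100.6 CPM in KO untreated. That sum includes Lcn2, a member of the acute phase list, and the part of these markers in the results was not tested. Ccl5, a T cell chemokine, fell by 2.71 ± 0.35 (log2, SE; quasi-likelihood adjusted p = 0.000199), with 1.12 to 1.92 CPM in the untreated KO livers against 0.149 to 0.367 CPM in the WT CDDO-Me livers. These were the 2 of 18 cytokine and NF-kB genes called.

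Genes of fat synthesis fell. Of 28 genes of fatty acid and triglyceride synthesis, 10 fell, 1 rose and 24 had negative values, with a median of −0.9 (16 fell on log2(FPKM + 1)). Fasn (chromosome 11, 120805846 to 120824547) read 766, 485, 556 and 407 CPM in WT CDDO-Me 1 to 4 and 1869, 2737, 1332 and 2433 CPM in KO untreated 1 to 4. Fatty acid synthase was lower in every WT CDDO-Me library than in any KO untreated library (log2 −1.92 ± 0.33 SE, quasi-likelihood adjusted p = 0.00272). Acly read 237, 240.2, 212 and 199.8 CPM in WT CDDO-Me 1 to 4 and 627, 730.1, 489 and 1401 CPM in KO untreated 1 to 4. Acly, which makes cytosolic acetyl-CoA, was lower by a similar amount (log2 −1.87 ± 0.27 SE, quasi-likelihood adjusted p = 0.000424), and KO untreated 4 was the highest. Acacb read 115, 89.4, 142 and 117 CPM in WT CDDO-Me 1 to 4 and 214, 576, 343 and 608 CPM in KO untreated 1 to 4. Acacb, an acetyl-CoA carboxylase, was highest in KO untreated 2 and 4 and did not overlap (log2 −1.91 ± 0.28 SE, quasi-likelihood adjusted p = 0.000625). Srebf1 (chromosome 11, 60199089 to 60222581) read 94.2, 84.5, 104 and 90.2 CPM in WT CDDO-Me 1 to 4 and 497, 418, 215 and 348 CPM in KO untreated 1 to 4. Srebf1, the transcription factor that drives this pathway, lay in a narrow range in WT CDDO-Me (log2 −1.99 ± 0.33 SE, quasi-likelihood adjusted p = 0.00206). Thrsp (Spot 14) fell by 2.51 ± 0.48 (log2, SE; quasi-likelihood adjusted p = 0.00557), with 955 CPM in KO untreated 2, whereas the other 3 of its group had 299 to 319 CPM. Pnpla3, a lipase of lipid droplets, read 15.1, 37.8, 3.68 and 7.93 CPM in KO untreated 1 to 4 and at most 1.21 CPM in WT CDDO-Me (log2 −4.23 ± 0.92 SE, quasi-likelihood adjusted p = 0.014). It was not called without WT CDDO-Me 3 (adjusted p in edgeR = 0.0506), without KO untreated 2 (adjusted p in edgeR = 0.0522), without both KO untreated 1 and 2 or on log2(FPKM + 1). Elovl5, Acss2, Gpam and Fads2 had −1.32, −1.37, −1.04 and −0.86. Scd1, a desaturase, had −1.19 with groups apart but missed the threshold (adjusted p in edgeR = 0.0615). Pparg was the 1 gene called higher (log2 1.68 ± 0.29 SE, quasi-likelihood adjusted p = 0.00223). In all, 4 genes of the list had positive values, each with an unadjusted p under 0.05 in edgeR, and DESeq2 called 3 higher. With WT CDDO-Me 1 as the only library of its group 0 of the list were called lower, and without KO untreated 1 and 2 there were 9. In the steps, Fasn had −0.34 for genotype and −1.58 for drug, Acacb −0.37 and −1.54, and Thrsp −0.24 and −2.27, the drug step called in each, while Acly and Srebf1 were called in neither. In KO liver given the drug, Fasn, Acacb and Thrsp had −0.77, −0.74 and −0.69. The fat synthesis list had a median of −0.34 there, with 0 genes called. At an unadjusted p under 0.05 in edgeR 6 were lower, with no share over all genes taken at this cut. Of 26 genes of cholesterol synthesis, Sc5d (−1.23) and Insig2 (−0.94) fell, Insig2 not without WT CDDO-Me 2, 3 or 4, and 10 had positive values (median −0.16). The drug step had a median of 0.3 for this list and −0.59 for the fat synthesis list. Fabp5, a fatty acid binding protein, fell by 2.34 ± 0.54 (log2, SE; quasi-likelihood adjusted p = 0.0189), and was not called without WT CDDO-Me 2 or 4 or KO untreated 2.

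**Figure D4:**
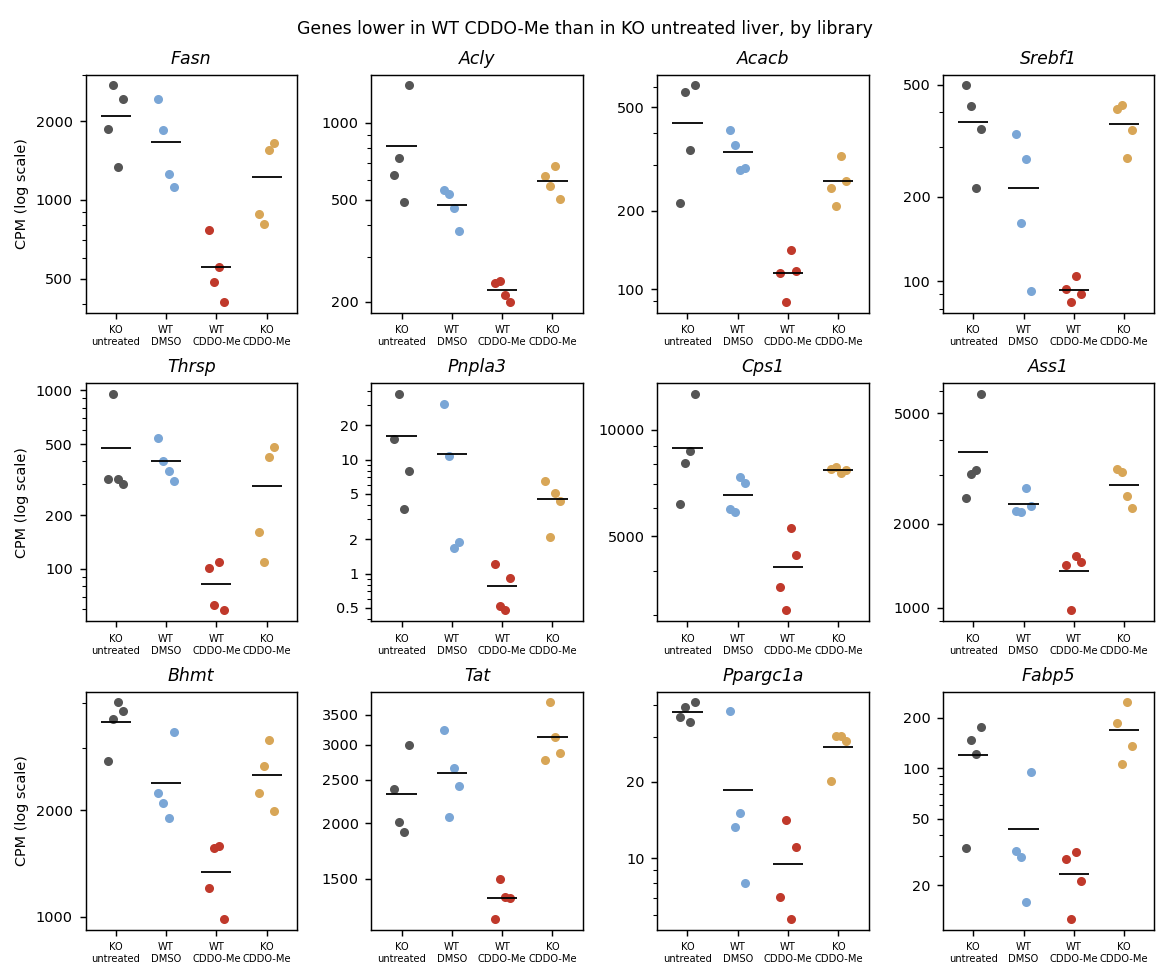
CPM on a log scale for 12 genes that were lower in WT CDDO-Me than in KO untreated liver, with a point for each library and a line at the group mean (n = 4), with the groups in the same order as in the plot of risen genes. Each WT CDDO-Me point lies under each KO untreated point of the same gene, and Pnpla3 and Thrsp also show the wide spread within KO untreated.

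The list of urea cycle and amino acid catabolism also had many falls. Of 29 genes 8 fell and 1 rose, with a median of −0.48. Cps1 (chromosome 1, 67123026 to 67231259) read 3605, 3089, 5293 and 4430 CPM in WT CDDO-Me 1 to 4 and 6167, 8069, 8720 and 12600 CPM in KO untreated 1 to 4. Cps1, which feeds ammonia into the urea cycle, was lower in every WT CDDO-Me library (log2 −1.11 ± 0.27 SE, quasi-likelihood adjusted p = 0.023), and the call was lost without WT CDDO-Me 1, 2 or 4 or KO untreated 2 or 4. Ass1 read 1428, 978, 1532 and 1465 CPM in WT CDDO-Me 1 to 4 and 2479, 3016, 3130 and 5855 CPM in KO untreated 1 to 4. WT CDDO-Me 2 was the lowest and KO untreated 4 the highest for this argininosuccinate synthase (log2 −1.42 ± 0.27 SE, quasi-likelihood adjusted p = 0.0054). Bhmt read 1209, 1565, 1586 and 985 CPM in WT CDDO-Me 1 to 4 and 2755, 3613, 4024 and 3801 CPM in KO untreated 1 to 4. Bhmt, which remethylates homocysteine with betaine, did not overlap either (log2 −1.41 ± 0.25 SE, quasi-likelihood adjusted p = 0.00349). The aminotransferases Tat and Got1, serine dehydratase Sds, histidase Hal and glutaminase Gls2 had −0.77, −1.17, −1.27, −0.81 and −1.11, with Tat just inside the threshold. Tryptophan dioxygenase Tdo2 rose by 0.77 on the log2 scale, and was not called without WT CDDO-Me 2, 3 or 4 or KO untreated 1 or 2, without the filter or on the FPKM scale. The count of falls was 3 without KO untreated 1 and 2, 18 on the FPKM scale, and 2 to 5 without any 1 library other than KO untreated 3. Summed periportal hepatocyte markers, which include some of these genes, were also lower without overlap, and their part was not tested. Urate oxidase Uox fell by 1.10 ± 0.25 (log2, SE; quasi-likelihood adjusted p = 0.0189), and was not called without WT CDDO-Me 1, 2 or 4. Of 20 genes of glucose metabolism, Ppargc1a, the coactivator of fasting metabolism, and Pklr, pyruvate kinase, fell, but Pklr was not called without any 1 of WT CDDO-Me 1 to 4 or without KO untreated 2 or 3. Ppargc1a read 7.02, 14.1, 5.77 and 11.1 CPM in WT CDDO-Me 1 to 4 and 35.9, 39.5, 34.4 and 41 CPM in KO untreated 1 to 4. The KO libraries lay close together for this gene (log2 −2 ± 0.38 SE, quasi-likelihood adjusted p = 0.00549).

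The largest falls outside these lists had low levels in WT CDDO-Me. Chrna4 (chromosome 2, 181018380 to 181043546) read 0.648, 0.447, 0.316 and 0.367 CPM in WT CDDO-Me 1 to 4 and 32.3, 58.2, 7.55 and 38.3 CPM in KO untreated 1 to 4. Chrna4, a nicotinic acetylcholine receptor subunit, was under 1 CPM in every WT CDDO-Me library (log2 −6.06 ± 0.96 SE, quasi-likelihood adjusted p = 0.00126), with −0.97 in the genotype step and −5.09 in the drug step. Its value in KO liver given the drug was −2.23, not called (adjusted p in edgeR = 0.229). Ptgds read 0.562, 0.223, 0.237 and 0.459 CPM in WT CDDO-Me 1 to 4 and 9.14, 13.8, 3.21 and 4.52 CPM in KO untreated 1 to 4. Ptgds, prostaglandin D synthase, was low in the same way (log2 −4.2 ± 0.55 SE, quasi-likelihood adjusted p = 0.000208). BC029214 read 55.4, 36.2, 15.1 and 11.9 CPM in KO untreated 1 to 4 and 4.61 to 5.14 CPM in WT CDDO-Me (log2 −2.58 ± 0.37 SE, quasi-likelihood adjusted p = 0.000424). It and Sspo (−2.83) were highest in KO untreated 1 and 2, the libraries rich in intronic reads. With the intronic share as a covariate BC029214 was at −2.05 (adjusted p in edgeR = 0.00159) and Sspo at −1.83 (adjusted p in edgeR = 0.0124), and without those libraries at −1.45 (adjusted p in edgeR = 0.000371) and −1.42 (adjusted p in edgeR = 0.353). Gria3, a glutamate receptor subunit, Clec2h, a lectin-like receptor, and the zinc finger gene Zfp618 had −2.49, −2.53 and −2.36. Their genotype steps were −2.69, −2.49 and −1.91 and their drug steps 0.2, −0.04 and −0.46. In KO liver given the drug they had −0.85, −1.56 and −1, none called (adjusted p in edgeR = 0.306, 0.128 and 0.229). Cyp17a1, a steroid hydroxylase, fell by 2.97 ± 0.71 (log2, SE; quasi-likelihood adjusted p = 0.0233), with 78.8 CPM in KO untreated 4 against 15.3 to 16.8 CPM in the others, and it was the 1 of 7 female-biased liver genes called. It was not called without any 1 of WT CDDO-Me 1 to 4 or without KO untreated 4 (adjusted p in edgeR up to 0.0811).

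Several lists gave few calls or none. Of 34 interferon-stimulated genes 0 were called by edgeR and 0 by DESeq2, while 6 were lower at an unadjusted p under 0.05, 5 were called lower on the FPKM scale, and 32 had negative values (median −0.66). For 12 of the 34 all WT CDDO-Me libraries lay below all KO untreated libraries (6.66% over all genes tested). The medians were 0.41 for genotype, −1.17 for drug and −0.58 in KO liver given the drug, with 0 called in each. In the drug step 21 were lower at an unadjusted p under 0.05 in edgeR, with no share over all genes taken at this cut. Of 27 cell cycle genes 0 were called by edgeR (2 up and 2 down at an unadjusted p under 0.05), 0 by DESeq2 and 1, lower, on the FPKM scale, with Mki67 at −0.08 and Ccnd1 at −0.27. Bile acid synthesis and uptake had 1 of 24 (Acox2, 0.66), with Cyp7a1, the rate-limiting enzyme of bile acid synthesis, at −0.88 ± 0.65 (SE, quasi-likelihood adjusted p = 0.454). The list of PPAR alpha targets and fatty acid oxidation of 32 genes had 27 positive values and a median of 0.4 (20 and 0.04 on the FPKM scale), and Cpt1a, the gate of mitochondrial import, had 0.74 (adjusted p in edgeR = 0.0695). The clock list had 1 of 19 (Nfil3, 1.51). Of 14 male-biased genes Gstp1 and Ugt2b38 rose, and of 8 nuclear-retained RNAs Tug1 fell (−0.42). Ugt2b38 was not called without WT CDDO-Me 2, 3 or 4 or KO untreated 1 or 4, and Tug1 not without any 1 library other than KO untreated 4.

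**Figure D5:**
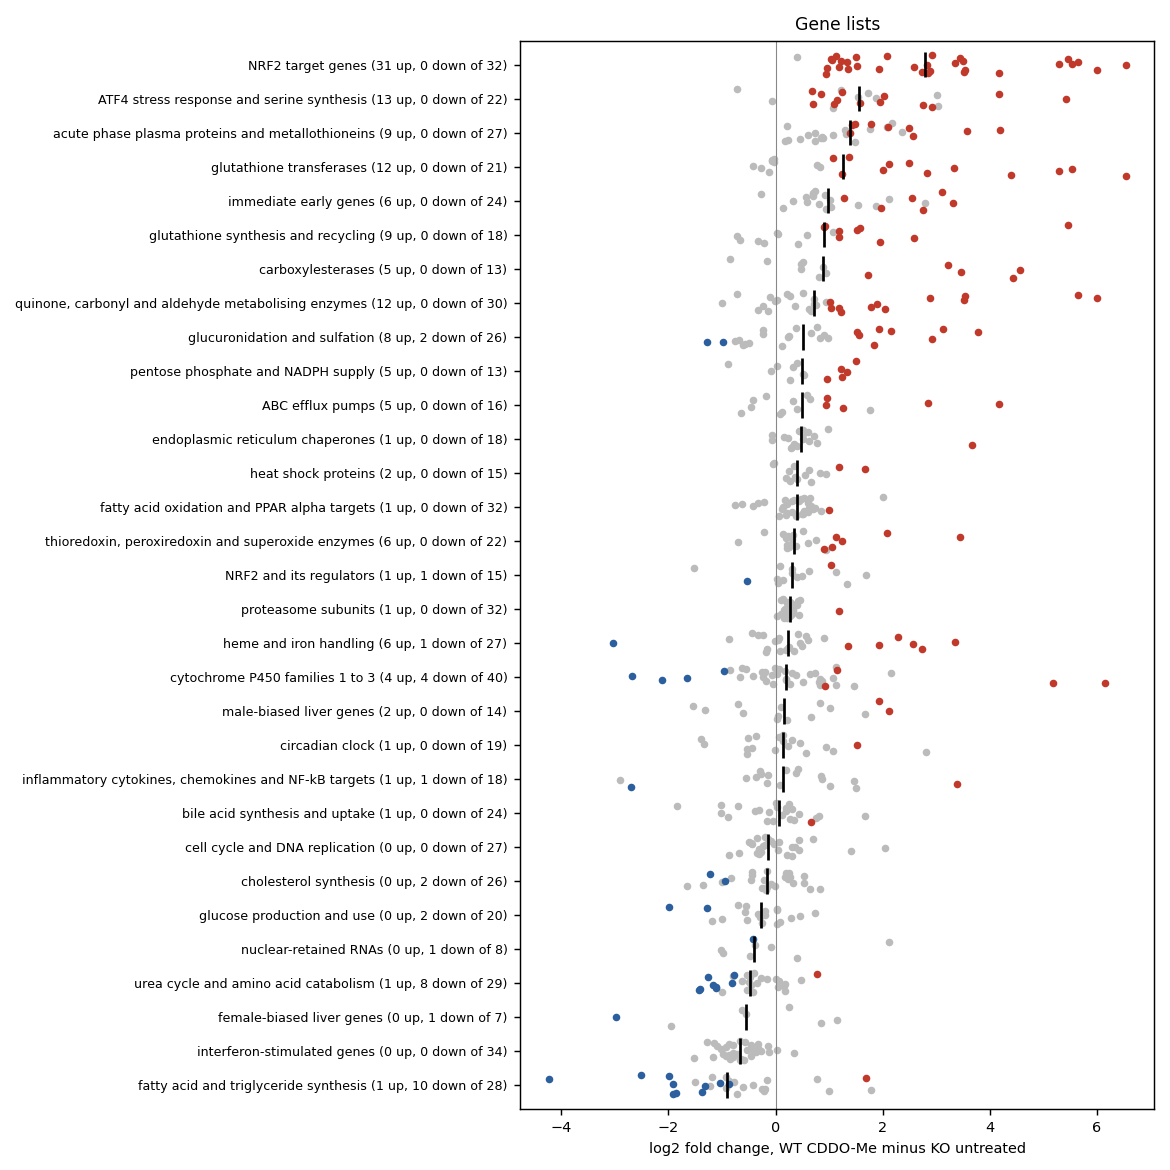
Log2 fold change of each tested member of all gene lists other than the cell type markers (points, red called higher, blue called lower and grey not called), with a black bar at each list's median, ordered by median. NRF2 targets stand at the top with a median of 2.78 and fatty acid and triglyceride synthesis at the bottom with −0.9.

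Markers of cell types were read beside these results, since in whole liver fewer cells of a type and less RNA per cell cannot be told apart. Summed over 16 genes, hepatocyte markers spanned 95290 to 117400 CPM in WT CDDO-Me and 69490 to 159300 CPM in KO untreated, with Hnf4a higher and Tat and Cps1 lower. Hnf4a was not called without WT CDDO-Me 3 or 4 or KO untreated 2. Periportal hepatocyte markers summed to 7967 to 9099 CPM against 9839 to 17920 CPM, without overlap, and 5 of 14 fell (Ass1, Gls2, Hal, Sds and Slc7a2, 4 of which also count in the amino acid list, with 2 or 3 falls without any 1 library other than KO untreated 3). Pericentral markers had a median of 0.29, with Glul, glutamine synthetase, at 0.28. Of 16 Kupffer cell and macrophage markers 0 were called by edgeR, 7 were up at an unadjusted p under 0.05, 3 were called up by DESeq2 and 0 on the FPKM scale, with sums of 766 to 1029 CPM against 432 to 736 CPM. Their genotype step had a median of −0.49, with 1 called lower (0.407% over all genes tested). Their drug step had a median of 0.8, with 4 called higher (0.555% over all genes tested). In KO liver given the drug the median was 0.2, with 0 called. The 16 neutrophil and monocyte markers summed to 114 to 1130 CPM against 57.9 to 100.6 CPM, and 1 of 9 tested rose (Prtn3, 2.53). Lcn2, which is in this sum, also counts in the acute phase list. Prtn3 was not called without WT CDDO-Me 3 or 4 or KO untreated 1, 2 or 3 or with the intronic share as a covariate or on log2(FPKM + 1), and its value for KO CDDO-Me minus KO untreated was 4.63. Lymphocyte markers summed to 20.9 to 30.9 CPM against 35.2 to 53.3 CPM, all 6 tested had negative values and Ighm, the heavy chain of immunoglobulin M, fell, with 5.43 to 10.04 CPM in the untreated KO livers against 1.47 to 2.16 CPM in the WT CDDO-Me livers (log2 −2.16 ± 0.30 SE, quasi-likelihood adjusted p = 0.000329). Of 16 stellate cell markers 1 rose (Ecm1, not called without WT CDDO-Me 1 or 4 or KO untreated 1 or 2), and 0 of 11 cholangiocyte, 17 endothelial and 8 erythroid markers tested were called by edgeR. For cholangiocytes 1 was up and 2 were down at an unadjusted p under 0.05 and DESeq2 called 2 and limma on FPKM 1, all lower, whereas endothelial and erythroid markers gave 0 by each of these. Adipocyte, mesothelial, pancreatic and muscle markers summed to at most 2.48 CPM in any library. The part of these cell types in the results above was not tested.

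Among the genes with the largest difference in CPM, a measure that also grows with gene length, were 2 that rest on WT CDDO-Me 4. The mitochondrial ribosomal RNA mt-Rnr1 read 699, 1486, 826 and 54720 CPM in WT CDDO-Me 1 to 4 and 287 to 806 CPM in KO untreated, and Gm42418 read 2241, 1632, 1738 and 52810 CPM and 468 to 2394 CPM. The groups overlapped for both (adjusted p in edgeR = 0.0379 and 0.0439), and neither was called without WT CDDO-Me 4 (adjusted p in edgeR = 0.437 and 0.449). Neither counts in the share of nuclear ribosomal RNA given above, as mt-Rnr1 is annotated as mitochondrial rRNA and Gm42418 as lincRNA. Mup9, a major urinary protein gene, had 1.93 with overlapping groups and shares 27.4% of its 50-base stretches with Mup17.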

How the data were processed

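RNA from snap-frozen liver was depleted of ribosomal RNA and sequenced on strand-marking libraries, per the labels' protocols. The deposited table gives raw read counts per gene and FPKM made by the authors. The submitters' processing notes name build GRCm38.p5 and, without roles, TopHat2 2.1.0, HTSeq 0.6.1p1, DESeq2, cutadapt 1.2.1 and CASAVA 1.8.2. The authors' FPKM equal counts over length and library total to a relative 7e-07. Of 33730 gene IDs, 33629 matched GENCODE M21 (GRCm38), which gave symbols and positions. The members and gene lists were chosen with earlier results of these data known.

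Counts were tested with edgeR 4.0.16 (R 4.3.3; quasi-likelihood, TMM, filterByExpr) over all 16 libraries in 4 groups, two-sided, with Benjamini-Hochberg adjustment over 16206 genes and a threshold of 0.05. Values after ± are SE, from the fit, unless SD is named. CPM use TMM-scaled totals. Library totals of 13809649 to 99284626 counts set the precision, and libraries are separate animals according to the series text. No pair of libraries of a group agreed within sampling noise (lowest chi-square per degree of freedom 31.4).

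Named genes were Nfe2l2, Nqo1, Gclc, Gclm, Txnrd1, Srxn1, Hmox1, Keap1, Maff, Mafg, Mafk and Bach1. To these were added the 12 largest rises and falls among called protein-coding genes at 5 CPM or more with groups that did not overlap, up to 4 called members per list and direction by p, and the 6 largest CPM differences per direction. Other members named were chosen after their values were seen. Sequences came from RefSeq (GRCm38.p6). Alternatives were DESeq2 1.42.0, RLE factors, no filter, 8 libraries, limma 3.58.1 on log2(FPKM + 1) and log2(FPKM + 0.1), where log2 values come from the authors' FPKM, a replicate block, an intronic covariate and libraries left out. The scripts were tested on simulated data.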

Additional observations from a re-analysis of the deposited data

Results flagged for a closer look

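Each value here is a library far from the rest of its group of 4. Its distance to the nearest other library was over 0.829 of the group's whole range, both taken on a log scale. Of 248 such groups 17 held one, and chance gives about 1 in 20. Levels are CPM.

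In WT CDDO-Me 1, Gclm was at 240.4 (others 318.1 to 334.9), Tdo2 at 1502 (1883 to 1957), Ugt2b38 at 73.35 (205.1 to 230), Atf3 at 22.07 (4.865 to 5.358) and Maff at 7.647 (6.058 to 6.244). This is also the library with a total of 99284626 counts, against 13809649 to 14907764 in its group. In WT CDDO-Me 2, Ass1 was at 977.7 (1428 to 1532). In WT CDDO-Me 4, Hmox1 was at 266 (94.96 to 105.2), Mt2 at 1194 (646.9 to 707.6), Slc35d1 at 310.2 (348 to 351.8) and Gm42418 at 52810 (1632 to 2241).

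In KO untreated 1, Ugdh was at 48.91 (71.91 to 76.59), and in KO untreated 2, Thrsp was at 954.6 (299.1 to 319.1). In KO untreated 4, Cyp17a1 was at 78.84 (15.25 to 16.76), Gls2 at 518.6 (250.6 to 278.1), Ugt1a6b at 20.71 (29.05 to 30.65) and Sult1c2 at 4.219 (2.59 to 2.69).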

How the results depend on the processing

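The count of 476 genes higher in WT CDDO-Me and 307 lower came to 804 and 616 with DESeq2, 288 and 835 with limma on log2(FPKM + 1), 294 and 830 on log2(FPKM + 0.1), 727 and 610 with the intronic share as a covariate, 164 and 99 without KO untreated 1 and 2, 88 and 2 with only WT CDDO-Me 1 against KO untreated (a lone library, assumed to vary like the other groups, with lower power), and, chosen after seeing the data, 748 and 606 without WT DMSO 4. With RLE factors, no filter, only the 8 libraries compared or WT CDDO-Me 1 thinned to 14907764 counts (also chosen after seeing the data), both counts stayed within 1.5 times. Leaving out 1 library gave 253 to 491 higher and 132 to 369 lower, and 24 to 29 NRF2 targets. The 31 NRF2 targets came to 20 without KO untreated 1 and 2, to 17 with only WT CDDO-Me 1, and to 27 to 31 under the other settings. The replicate block gave 834 and 559, but same-numbered libraries correlated at 0.434, 0.058, 0.351 and 0.234 in their deviations and KO untreated 2 correlated best with WT CDDO-Me 1 (0.277), so the numbers were not taken as pairs. Mafg was 0.31 (log2), and −0.0021 on log2(FPKM + 1); the cause was not tested. Of 117 named genes called, 31 stayed called under every setting, 75 in each of the fits without 1 library, 71 without KO untreated 1 and 2 and 34 with only WT CDDO-Me 1. Of 840 list counts recomputed, 283 moved by over 1.5 times. With 4 libraries a group, small differences could not be resolved.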

Other observations

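These genes were chosen after their values were seen. In a few genes KO untreated stood apart from the 3 other groups. Igf2bp3 (chromosome 6, 49085223 to 49214957), an RNA-binding protein typical of fetal tissue, read 2.18, 5.65, 4.39 and 5.5 CPM in KO untreated 1 to 4 and at most 0.162 CPM in any of the 12 other libraries. It was therefore high in untreated KO liver alone (main comparison log2 −5.85 ± 0.67 SE, quasi-likelihood adjusted p = 4.59e-05). Prg4 (chromosome 1, 150449412 to 150466165), the secreted proteoglycan lubricin, went the other way, at 10.9, 16.6, 24.4 and 19.5 CPM in KO untreated and 107, 92.7, 111 and 156 CPM in WT CDDO-Me (log2 2.71 ± 0.32 SE, quasi-likelihood adjusted p = 5.43e-05), with 74.1 to 99.8 CPM in KO CDDO-Me.

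On chromosome 14, 38 of 522 genes tested were higher in WT CDDO-Me (7.28%, against 2.94% over all genes). Several lie close together, among them Gm16867 (chromosome 14, 69363504 to 69503362) and the antisense gene Gm27177 (chromosome 14, 69582164 to 69683286). Gm27177 read 10.7, 8.34, 7.35 and 6.24 CPM in WT CDDO-Me 1 to 4 and 7.03, 8.95, 5.49 and 8.95 CPM in WT DMSO 1 to 4. In KO untreated 1 to 4 it read 0, 0.0483, 0 and 0 CPM, and in KO CDDO-Me at most 0.0405 CPM, so the split followed genotype. Gm16867 read 14.4, 11.2, 9.96 and 9.36 CPM in WT CDDO-Me and 0.813, 0.386, 0.378 and 0.213 CPM in KO untreated, with 6.96 to 11.4 CPM for WT DMSO. Entpd4 (chromosome 14, 69337174 to 69367270), a nucleotide-hydrolysing enzyme in the same stretch, had 22.1, 28.4, 29.3 and 27.7 and 14.2, 12.9, 16.9 and 15.3 CPM (log2 0.85 ± 0.14 SE, quasi-likelihood adjusted p = 0.00187), and 24.1, 22, 26.4 and 29.6 CPM in WT DMSO.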
